A study of Sus scrofa with 8 samples.

Results

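The interleukins and their receptors of the pig liver were the 67 genes whose symbol begins with IL and a number, out of 18103 rows of hepatic RNA values. By role they were 25 ligands, 4 antagonists or decoys, 35 receptor chains and 3 other genes that carry the name without being a cytokine or a classical cytokine receptor (IL4I1, a secreted amino acid oxidase, and IL1RAPL1 and IL1RAPL2, proteins of neuronal synapses). The rule for membership uses the symbol alone and no measured value. All 67 were matched by gene ID to RefSeq genes of assembly Sscrofa11.1.

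The samples were liver RNA of male Landrace x Large White pigs, a commercial cross. The Control group (the initial state, condition healthy) was taken at 4 months of age by biopsy through laparotomy. The Steatosis group came, by the study's account, from the same animals at 6 months, sampled after euthanasia. By then they had spent 2 months on a diet rich in saturated fat, fructose, cholesterol and sodium cholate and poor in methionine and choline. Each group had 4 libraries and each library was a pool of 2 pigs, so that diet, age and way of sampling cannot be told apart and single animals are not resolved. Poly-A RNA was read as paired ends of 100 bp, and expression is given as FPKM, a count of fragments scaled by transcript length and by the mapped fragments of the library, which allows levels of different genes to be compared per length. FPKM does not carry the number of fragments behind a value. For the members, the most frequent non-zero value of transcripts of like length, taken as about 1 fragment, was 0.01 to 0.12 FPKM.

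Interleukins are secreted signalling proteins by which immune and tissue cells act on each other, and each binds a receptor built from a specific chain and, often, a chain shared by several cytokines. The common gamma chain (IL2RG) serves the receptors of IL2, IL4, IL7, IL15 and IL21, IL6ST (gp130) serves IL6, IL11 and IL27, and IL10RB serves IL10 and IL22. The members of the IL1 family, which include IL18 and IL33, and those of the IL17 family use receptors of their own that signal through adaptor proteins. The liver is a major target of these cytokines: hepatocytes answer IL6 and IL1 with acute phase proteins, and the resident macrophages (Kupffer cells), T cells and NK cells of the organ both make interleukins and respond to them.

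Of the 67 members, 34 reached 0.3 FPKM in 4 or more libraries and were tested, namely 8 of the 25 ligands, 2 of the 4 antagonists or decoys, 23 of the 35 receptor chains and IL4I1. The other 33 stayed under this limit. A total of 47 members were above 0 in every library and 20 were listed at 0 in at least 1 library, 14 of them ligands. Receptor chains reached higher levels than ligands, since the highest mean over the 8 libraries was 66.2 FPKM among receptor chains and 10.6 FPKM among ligands.

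The comparison of Steatosis with Control asked which of these genes changed their hepatic RNA level over the dietary period. Log2(FPKM + 0.1) was tested with limma, with Benjamini-Hochberg adjustment over 13175 genes, and a member was said to rise or fall where the adjusted p was below 0.01 and the estimate passed 1 or -1 on the log2 scale, which are the limits of the study. A total of 3 members rose, all of them receptor chains: IL2RG, IL17RC and IL27RA. In all tested genes 6.01% were higher by this rule, and 3 of 34 is close enough to this share that the count is not read as a result about the members as a whole. The number of members that fell was 0, against 0.334% of all tested genes, and without the limit on the fold change it was also 0, against 0.744%. Without that limit 6 members were higher, adding IL18, IL10RA and IL15, where 12.9% of all tested genes were higher. The groups did not overlap in 12 of the 34 tested members, all higher in Steatosis, beside 29.6% of all tested genes. The 12 include IL12RB1, which reached 0.3 FPKM in its Steatosis pools alone and so was tested only because it was higher there. In the other direction the number was 0 of 34 members, beside 2.53%. The median log2 fold change of the 34 members was 0.60 and that of all tested genes 0.25, and 31 of the 34 estimates, like 78.7% of those of all genes, were above 0.

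This general shift bears on every value given here. The median ratio of a library to the mean library lay between 0.773 and 0.964 in the Control pools and between 1.05 and 1.09 in the Steatosis pools. When each library was divided by its median ratio, the median log2 fold change was -0.020 for all tested genes and 0.35 for the members, 23 of the 34 estimates were above 0, and 0 members passed both limits (3.04% of all tested genes were still higher). Under that scaling IL2RG, IL17RC, IL27RA and IL10RA were higher and IL4R lower at an adjusted p under 0.01 without the fold limit (5.53% and 2.95% of all tested genes). A total of 9 members, IL12RB1 among them, lay wholly above and 1 wholly below the Control pools (13.1% and 13.6%). IL33, IL17RA and IL2RB, which did not overlap with FPKM as deposited, overlapped after this scaling. A fit with that scaling and a block for pool number was chosen after the data were seen. Its adjusted p values by limma were 0.0096 for IL2RG and 0.0039 for IL17RC. They were 0.011 for IL27RA and 0.018 for IL10RA, no longer under 0.01. The expression of the 34 members is plotted by pool.

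**Figure D1:**
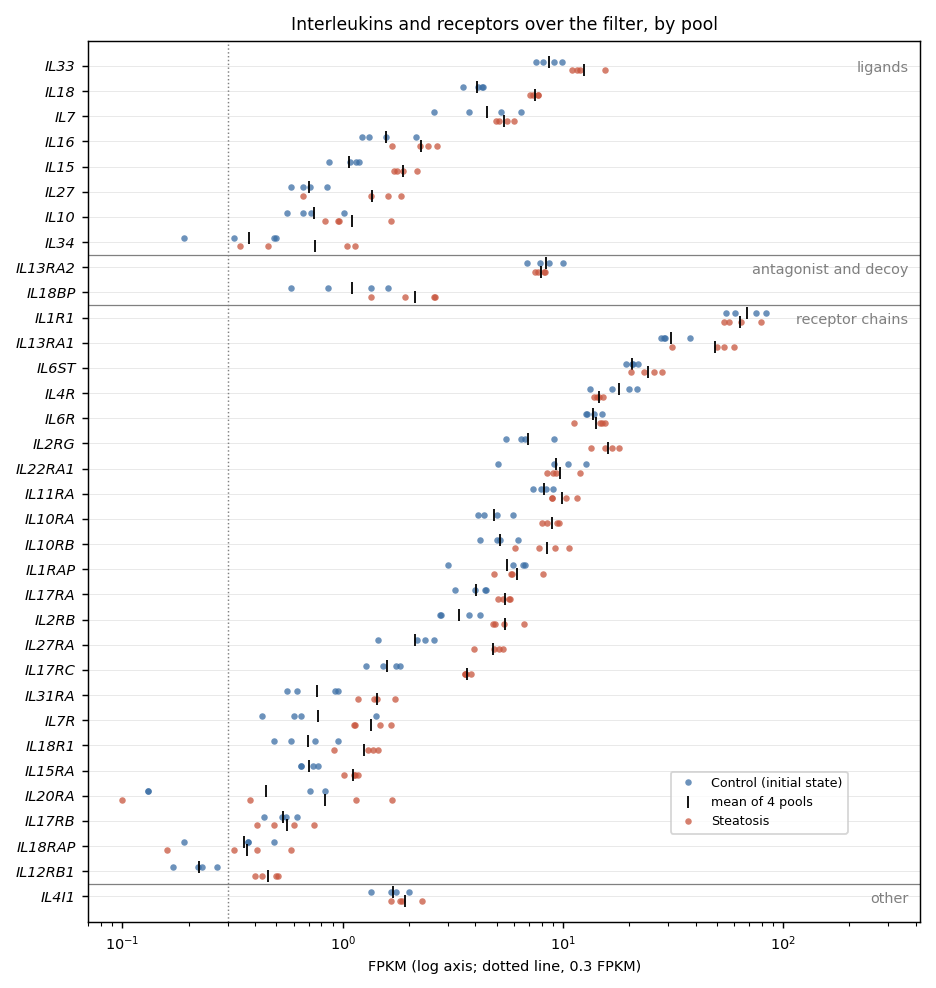
FPKM (log axis) of the 34 tested members in each of 4 Control and 4 Steatosis pools, with the mean of 4 pools as a black bar and 0.3 FPKM as a dotted line, ordered by role and mean level. The Steatosis pools of IL2RG, IL17RC and IL27RA lie wholly above the Control pools, while those of IL1R1, IL6R, IL6ST and IL4R overlap with them.

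**Figure D2:**
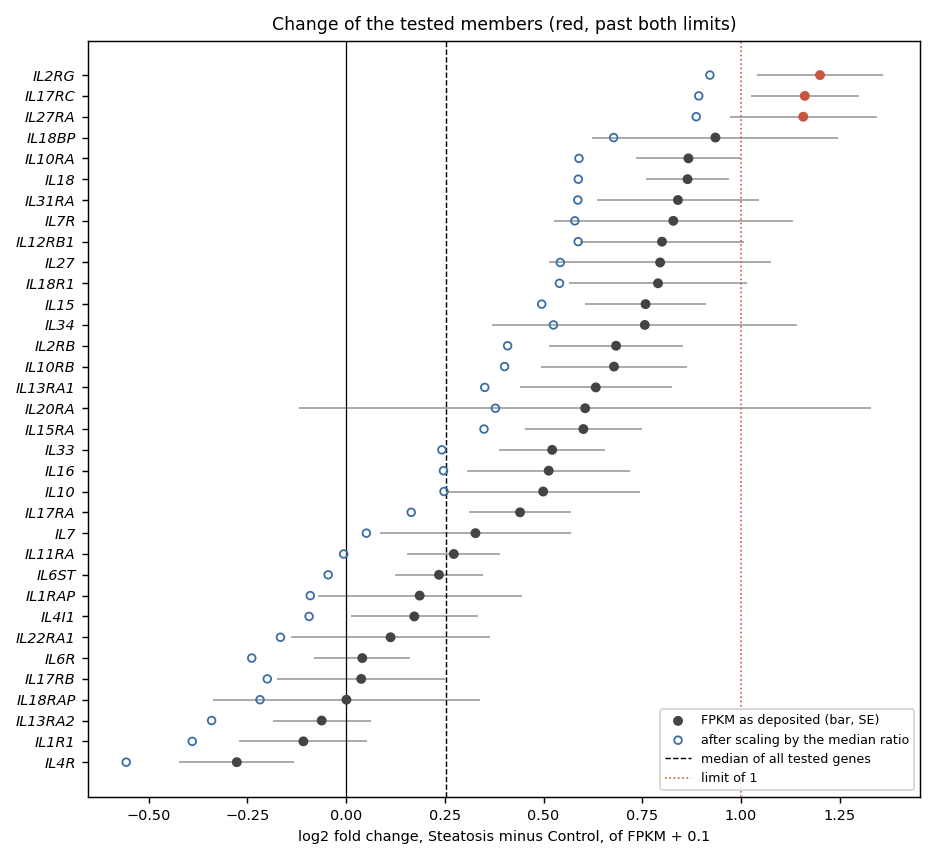
Log2 fold change (Steatosis minus Control, of FPKM + 0.1) of each tested member with its SE as a bar, beside the estimate after scaling by the median ratio as an open circle. The dashed line is the median of all tested genes (0.25) and the dotted line the limit of 1. The 3 members in red pass both limits with FPKM as deposited, and no open circle reaches 1.

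The ligands over the limit were led by IL33, an alarmin stored in the nucleus of endothelial and epithelial cells and released on damage. IL33 was measured at 7.52, 9.86, 8.14 and 9.09 FPKM in Control pools 1 to 4 and at 11.57, 12, 10.99 and 15.5 FPKM in Steatosis pools 1 to 4. Every Steatosis pool was above every Control pool, but the estimate did not pass the limits (log2 fold change 0.52, SE 0.13, adjusted p = 0.018 by limma). After scaling by the median ratio the groups overlapped and the estimate was 0.24 (adjusted p = 0.24 by limma).

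IL18, an alarmin that caspase 1 activates and that drives interferon gamma production, was at 4.29, 3.50, 4.11 and 4.33 FPKM in Control and at 7.67, 7.11, 7.35 and 7.67 FPKM in Steatosis. The Steatosis values lay within a narrow band, 1.84 times the Control mean, and the estimate of 0.86 on the log2 scale (SE 0.11, adjusted p = 0.00046 by limma) stayed under the limit of 1. After scaling by the median ratio the estimate was 0.59. IL15, which sustains NK cells and memory T cells, was at 1.08, 0.87, 1.15 and 1.19 FPKM in Control and 1.87, 1.76, 1.71 and 2.18 FPKM in Steatosis, again without overlap (log2 fold change 0.76, SE 0.15, adjusted p = 0.0058 by limma). In the fit blocked by pool number IL15 had an adjusted p of 0.012. IL18, IL33 and IL15 were the ligands whose groups did not overlap among the 8 tested, beside 29.6% of all tested genes that were higher without overlap.

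IL27, the p28 chain of a heterodimer that pairs with EBI3 and signals through IL27RA and IL6ST, was measured at 0.58, 0.85, 0.66 and 0.71 FPKM in Control. Its Steatosis values were 1.84, 1.34, 0.66 and 1.60 FPKM, pool 3 lying among the Control pools and the other 3 above them (adjusted p = 0.059 by limma). Without Steatosis pool 3 the log2 fold change was 1.08 and passed both limits. With all pools and scaling by the median ratio it was 0.54 (adjusted p = 0.19 by limma). IL27 overlaps APOBR and LOC110260087 in the annotation, where reads cannot be told apart because the strand of the libraries is not given. IL10, the main anti-inflammatory interleukin, was at 0.56, 1.01, 0.72 and 0.66 FPKM in Control and 0.96, 0.95, 0.83 and 1.66 FPKM in Steatosis. The groups of IL10 overlapped, and pool 4 of Steatosis stood apart from the rest.

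IL34, a second ligand of the macrophage receptor CSF1R, averaged 0.38 ± 0.15 FPKM in Control and 0.75 ± 0.41 FPKM in Steatosis (SD, n = 4 in each group), with an adjusted p of 0.17 by limma and overlapping groups. IL16, a chemoattractant for CD4 cells, averaged 1.57 ± 0.42 and 2.26 ± 0.43 FPKM and IL7, the survival factor of lymphocytes, 4.52 ± 1.68 and 5.41 ± 0.46 FPKM (SD, n = 4 in each group). Both overlapped between the groups, with adjusted p values of 0.089 and 0.33 by limma.

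The classical inflammatory ligands were close to the floor. IL1B, the chief product of the inflammasome, was at 0.13, 0.12, 0.09 and 0.06 FPKM in Control and 0.22, 0.12, 0.27 and 0.42 FPKM in Steatosis, with an exact two-sided permutation p of 0.086, and the pig genome holds copies of this gene between which reads may be split. IL1A was at 0.19, 0.09, 0.09 and 0 FPKM in Control and 0.13, 0.26, 0.22 and 0.20 FPKM in Steatosis (exact permutation p = 0.057). With 4 pools in each group this test cannot go below 0.0286.

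IL6, the main inducer of acute phase proteins, was at 0.46, 0.10, 0.05 and 0.14 FPKM in Control and at 0.05, 0, 0.05 and 0.35 FPKM in Steatosis, where about 1 fragment corresponds to 0.05 FPKM. A single pool in each group held most of this signal, pool 4 in Steatosis and pool 1 in Control, the library that also held genes of skeletal muscle (2740 FPKM in sum) and stomach mucosa (1516 FPKM), whose part in this value was not tested, and the exact permutation p was 0.51. IL12B, the p40 chain of IL12 and IL23, had 0.03 to 0.05 FPKM in Control and 0 to 0.10 FPKM in Steatosis, and 0.02 FPKM corresponds to about 1 fragment. For these 4 ligands no difference past the test was found, at values of a few fragments and with 4 pools in each group.

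Among the other 13 ligands under the limit, IL31 was the only one whose groups did not overlap, at 0 to 0.03 FPKM in Control and 0.04 to 0.15 FPKM in Steatosis. At this level, with about 1 fragment per 0.01 FPKM, the difference rests on a few fragments. The highest single value of any ligand under the limit was 0.89 FPKM, of IL17B in the same Control pool 1, against 0.09 to 0.20 FPKM in the other Control pools. IL2, IL5, IL13, IL17C, IL17D, IL23A, IL12A, IL11, IL25, IL26 and IL29 reached at most 0.54 FPKM in any pool, and IL11 and IL26 were above 0 in only 1 library each. Genes of other interleukin names that carry no such symbol in the table, IL1RN, IL4 and IL22 among them, were not analysed here.

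The 4 antagonists and decoys bind a cytokine without passing a signal. IL13RA2, the decoy receptor of IL13, was the most abundant at 6.89, 8.69, 7.84 and 10.01 FPKM in Control and 7.48, 8.32, 8.24 and 7.70 FPKM in Steatosis, and its groups overlapped (log2 fold change -0.06, 95% interval -0.34 to 0.22). IL18BP, the secreted binding protein that neutralizes IL18, was at 0.86, 1.34, 1.61 and 0.58 FPKM in Control and 1.35, 1.92, 2.60 and 2.62 FPKM in Steatosis. Its highest Control pool was above its lowest Steatosis pool, and the estimate of 0.94 had the SE 0.31 (adjusted p = 0.048 by limma). The gene overlaps NUMA1 and RNF121 in the annotation, and the strand of the libraries is not given in the sources used here, so reads of these genes cannot be told apart where they overlap.

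IL1R2, the decoy for IL1, was at 0.06 to 0.23 FPKM over all pools, with overlapping groups. IL22RA2, the soluble decoy of IL22, was at 0.04 FPKM in Control pools 1 and 2 and listed at 0 in the other 6 libraries.

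IL2RG, the shared gamma chain, rose in Steatosis. It was measured at 5.50, 6.46, 9.13 and 6.74 FPKM in Control and 15.5, 16.7, 13.5 and 18.1 FPKM in Steatosis, so that the lowest Steatosis pool exceeded the highest Control pool. The Steatosis mean was 2.29 times the Control mean (log2 fold change 1.2, SE 0.16, adjusted p = 0.00068 by limma). IL2RG lies on chromosome X from 57143568 to 57151242 (Sscrofa11.1), and MED12 overlaps it in the annotation.

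The other chains of the IL2RG receptors did not pass both limits, and whether they differed from IL2RG was tested for IL7R alone, as a ratio given further on. IL2RB, the signalling chain for IL2 and IL15, was at 2.79, 3.74, 4.2 and 2.78 FPKM in Control and 5.38, 6.69, 4.93 and 4.79 FPKM in Steatosis, without overlap, but with an adjusted p of 0.015 by limma (log2 fold change 0.68, SE 0.17). IL15RA, which presents IL15 to neighbouring cells, went from 0.70 ± 0.06 to 1.11 ± 0.07 FPKM (SD, n = 4 in each group), also without overlap and with an adjusted p of 0.015 by limma. IL7R, a chain of T cells and innate lymphocytes, was at 0.65, 0.60, 1.41 and 0.43 FPKM in Control and 1.12, 1.48, 1.65 and 1.14 FPKM in Steatosis. Control pool 3 overlapped with Steatosis, and without that pool the log2 fold change of IL7R was 1.13 and passed both limits.

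IL21R, a receptor chain of lymphocytes, stayed under the limit of testing at 0.14, 0.16, 0.19 and 0.15 FPKM in Control and 0.35, 0.26, 0.21 and 0.40 FPKM in Steatosis, with no overlap (exact permutation p = 0.0286, the smallest possible). IL2RA, the high-affinity chain of IL2 on regulatory and activated T cells, was at 0.04 to 0.35 FPKM in Control and 0.19 to 0.42 FPKM in Steatosis, and IL9R at 0.06 to 0.19 FPKM over all pools, both with overlap. In all, 1 of the 9 tested members of the family that uses the gamma chain or shares ligands with it rose, beside 6.01% of all tested genes. The median log2 fold change of the 9 was 0.63 beside 0.25 for all tested genes, and after scaling by the median ratio it was 0.35 with 0 past both limits.

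IL4R and IL13RA1 form the receptor for IL4 and IL13 on cells that are not of the blood. IL4R was at 16.8, 21.6, 20 and 13.2 FPKM in Control and 15.2, 13.8, 14.6 and 14.3 FPKM in Steatosis. The Steatosis pools were close to each other and lay inside the Control range, with a log2 fold change of -0.28 (95% interval -0.60 to 0.05). This was the lowest estimate of the 34, and after scaling by the median ratio it was -0.56 with an adjusted p of 0.0064 by limma and no overlap between the groups. IL13RA1 was at 28.0, 28.8, 37.7 and 28.9 FPKM in Control and 31.3, 54.1, 60.0 and 50.2 FPKM in Steatosis. Only Steatosis pool 1 lay inside the Control range, and the estimate of 0.63 on the log2 scale (SE 0.19) had an adjusted p of 0.035 by limma.

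IL17RC rose from 1.83, 1.74, 1.52 and 1.28 FPKM in Control to 3.62, 3.83, 3.59 and 3.59 FPKM in Steatosis. IL17RC is the second chain of the receptor for IL17A and IL17F and is found mainly on non-blood cells. The lowest Steatosis pool was well above the highest Control pool, the Steatosis mean was 2.30 times the Control mean, and the adjusted p was the smallest of the 34 members (log2 fold change 1.16, SE 0.14, adjusted p = 0.00037 by limma). IL17RA, the chain shared by all IL17 receptors, was at 4.45, 4.46, 3.97 and 3.22 FPKM in Control and 5.08, 5.70, 5.33 and 5.73 FPKM in Steatosis, a shift without overlap that did not pass the limits (log2 fold change 0.44, SE 0.13, adjusted p = 0.029 by limma). IL17RB averaged 0.54 ± 0.07 and 0.56 ± 0.14 FPKM (SD, n = 4 in each group), while IL17RD, IL17RE and IL17REL were at 0 to 0.16 FPKM in every pool. IL17RE ends less than 2 kb before IL17RC on chromosome 13 (66164492 to 66177967 and 66179298 to 66194750, Sscrofa11.1). Of these neighbours IL17RE had at most 0.07 FPKM in any pool.

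IL27RA, the specific chain of the IL27 receptor on T cells and macrophages, was at 2.17, 2.36, 2.59 and 1.44 FPKM in Control and 5.37, 4.84, 3.96 and 5.13 FPKM in Steatosis. The groups did not overlap, with a Steatosis mean 2.25 times that of Control (log2 fold change 1.16, SE 0.19, adjusted p = 0.0019 by limma). Without Control pool 4, the lowest, the log2 fold change was 0.99 and the limit of 1 was no longer passed. IL27RA lies on chromosome 2 from 65127278 to 65149665.

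IL6ST, the gp130 chain that IL27RA joins, was at 20.5, 21.9, 20.9 and 19.3 FPKM in Control and 20.3, 26.0, 28.2 and 23.4 FPKM in Steatosis, with overlap and a log2 fold change of 0.24 (95% interval -0.02 to 0.49). IL6R, the chain that binds IL6 on hepatocytes, was at 15.1, 12.8, 13.8 and 12.9 FPKM in Control and 11.2, 15.5, 15.0 and 14.8 FPKM in Steatosis. The groups overlapped widely and the 95% interval of the log2 fold change was -0.23 to 0.31. IL11RA averaged 8.18 ± 0.70 FPKM in Control and 9.93 ± 1.26 FPKM in Steatosis (SD, n = 4 in each group, adjusted p = 0.11 by limma).

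IL31RA, which pairs with OSMR to receive IL31, was at 0.95, 0.62, 0.92 and 0.56 FPKM in Control and 1.17, 1.43, 1.72 and 1.38 FPKM in Steatosis, without overlap (log2 fold change 0.84, SE 0.21, adjusted p = 0.014 by limma). IL12RB1, the chain shared by IL12 and IL23, was at 0.17, 0.22, 0.23 and 0.27 FPKM in Control and 0.50, 0.51, 0.40 and 0.43 FPKM in Steatosis, without overlap (log2 fold change 0.80, SE 0.21, adjusted p = 0.018 by limma). It entered the test through its Steatosis pools alone, since no Control pool reached 0.3 FPKM. The specific chains were lower still: IL12RB2 was at 0.05 to 0.38 FPKM and IL23R at 0 to 0.22 FPKM over all pools, the latter without overlap between the groups (exact permutation p = 0.0286, the smallest possible).

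The receptors of the IL10 family included IL10RA, the ligand-binding chain on blood cells. It was at 4.37, 5, 5.95 and 4.11 FPKM in Control and 8.49, 9.56, 8.02 and 9.44 FPKM in Steatosis, without overlap, and its estimate of 0.87 on the log2 scale (SE 0.13, adjusted p = 0.0015 by limma) stayed under the limit of 1. IL10RB, the chain that most tissues carry, was at 5, 6.26, 5.2 and 4.2 FPKM in Control and 7.81, 9.21, 10.6 and 6.04 FPKM in Steatosis, where the lowest Steatosis pool fell below 1 Control pool (log2 fold change 0.68, SE 0.18, adjusted p = 0.022 by limma). In the fit blocked by pool number IL10RB had an adjusted p of 0.0085.

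IL22RA1, which makes hepatocytes responsive to IL22, averaged 9.35 ± 3.22 FPKM in Control and 9.68 ± 1.59 FPKM in Steatosis (SD, n = 4 in each group), with a 95% interval of the log2 fold change from -0.45 to 0.67. IL20RA varied more between pools than between groups, from 0.13 to 0.83 FPKM in Control and from 0.10 to 1.68 FPKM in Steatosis. IL20RB was under the limit of testing at 0.20, 0.20, 0.15 and 0.11 FPKM in Control and 0.33, 0.26, 0.29 and 0.34 FPKM in Steatosis, without overlap (exact permutation p = 0.0286, the smallest possible).

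Together with IL31, the receptors IL20RB, IL21R and IL23R made 4 members under the limit whose groups did not overlap, all higher in Steatosis, out of 33. The share of all rows under the limit that were higher without overlap was 5.19%, and 0.812% were lower.

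IL1R1, the signalling receptor of IL1, was the most abundant member in every pool, at 54.9, 84.0, 60.7 and 75.5 FPKM in Control and 64.6, 56.5, 79.2 and 54.1 FPKM in Steatosis. The spread within a group was larger than the difference between the means (log2 fold change -0.11, 95% interval -0.47 to 0.25). Its accessory chain IL1RAP was at 6.73, 6.61, 3 and 5.94 FPKM in Control and 8.11, 5.89, 5.82 and 4.84 FPKM in Steatosis, with overlap. IL18R1, which binds IL18, averaged 0.69 ± 0.20 and 1.26 ± 0.24 FPKM (SD, n = 4 in each group, adjusted p = 0.027 by limma), the highest Control pool (0.95) being above the lowest Steatosis pool (0.91). IL18RAP, its accessory chain, averaged 0.36 ± 0.12 and 0.37 ± 0.18 FPKM (SD, n = 4 in each group). IL1RL1, the receptor of IL33, was at 0.04 to 0.14 FPKM over all pools although its ligand was the most abundant interleukin.

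A total of 6 of these genes lie side by side on chromosome 3 within 51762111 to 52406393 (Sscrofa11.1), in the order IL18RAP, IL18R1, IL1RL1, IL1RL2, IL1R1 and IL1R2. Their mean levels in Control ranged from 0.035 FPKM of IL1RL2 to 68.8 FPKM of IL1R1, and 0 of the 3 tested (IL18RAP, IL18R1 and IL1R1) passed the limits. Members of this stretch thus did not share a level. Other members within 500000 bases of each other formed 8 pairs, among them IL31RA with IL6ST on chromosome 16, IL2RA with IL15RA on chromosome 10 and IL21R with IL4R on chromosome 3. IL4I1 averaged 1.69 ± 0.27 and 1.91 ± 0.27 FPKM (SD, n = 4 in each group) and overlaps ATF5 and NUP62, while IL1RAPL1 and IL1RAPL2 stayed at 0.01 to 0.09 FPKM in every pool.

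A ratio of 2 members within a library does not depend on the scaling between libraries. The tests used log2 ratios of FPKM + 0.1, which do depend on it where a member is near 0.1 FPKM, as IL1RL1 and IL1R2 were. Of 8 ratios compared by an exact permutation test of the log2 ratio that did not use pairs of pools, 0 passed an adjusted p of 0.05 (the lowest unadjusted p was 0.057 and the lowest adjusted p 0.34). The ratio of IL13RA1 to IL4R was 1.67, 1.33, 1.89 and 2.19 in Control and 2.06, 3.91, 4.10 and 3.50 in Steatosis, where only Steatosis pool 1 lay inside the Control range. IL6R to IL6ST was between 0.585 and 0.737 in Control and between 0.533 and 0.631 in Steatosis. IL18BP to IL18, the antagonist beside its ligand, was at 0.134 to 0.392 in Control and 0.176 to 0.354 in Steatosis, and their log2 ratio differed by 0.07 between the groups.

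The remaining tested ratios overlapped as well. IL10RA to IL10RB was at 0.799 to 1.14 in Control and 0.754 to 1.56 in Steatosis, IL15RA to IL15 at 0.546 to 0.839 and 0.463 to 0.667, and IL2RG to IL7R at 6.48 to 15.7 and 8.16 to 15.8. In log2 ratios of FPKM + 0.1 compared between pools of equal number, IL13RA1 to IL4R and IL2RG to IL7R were higher in Steatosis in 4 of 4 pairs and IL15RA to IL15 in 0 of 4. An exact sign-flip test over 4 pairs, added after the values were seen, gave 0.125 for each of these ratios. With 4 pairs it cannot give a p below 0.125, so it cannot decide whether they changed. IL33 exceeded its receptor IL1RL1 by 53.7 to 246.5 times in Control and 96.4 to 258.3 times in Steatosis, and IL1R2 was at most 0.0041 of IL1R1 in any pool. These values rest on a few fragments of the lower member. IL1RL1 was at 0.04 to 0.14 FPKM and IL1R2 at 0.06 to 0.23 FPKM, where about 1 fragment corresponds to 0.02 and 0.03 FPKM.

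A further 3 ratios were chosen after their values were seen and carry no test. IL17RC to IL17RA was 0.411, 0.390, 0.383 and 0.398 in the Control pools and 0.713, 0.672, 0.674 and 0.627 in the Steatosis pools, with very little spread inside either group. IL27RA to IL6ST was at 0.075 to 0.124 in Control and 0.141 to 0.264 in Steatosis. IL2RG to IL2RB was at 1.73 to 2.42 in Control and 2.50 to 3.77 in Steatosis. Because each pair holds a member already found to be higher, the direction of these ratios is a description only.

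**Figure D3:**
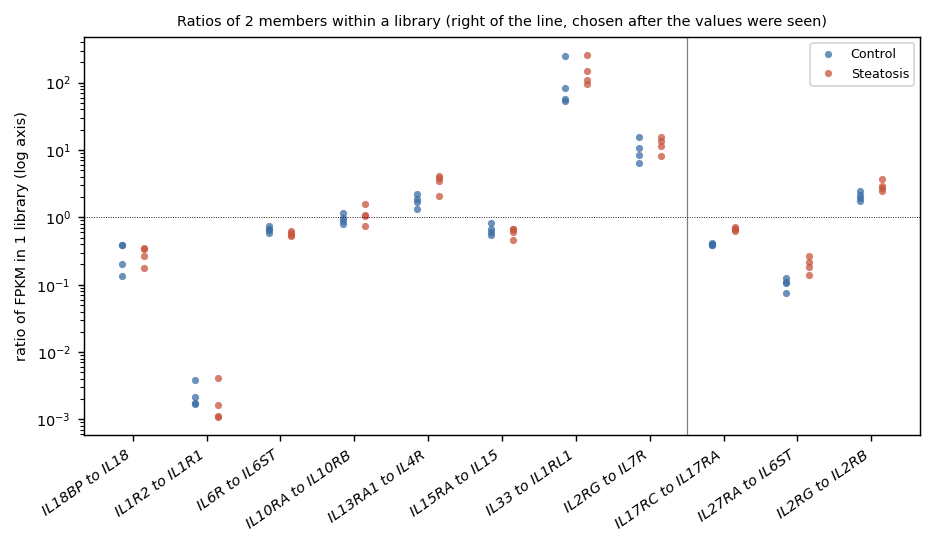
Ratio of the FPKM of 2 members in the same library (log axis) for the 4 Control and 4 Steatosis pools. The 8 ratios left of the vertical line were tested and their groups overlap. The 3 to its right were chosen after the values were seen, and among them IL17RC to IL17RA is at 0.383 to 0.411 in Control and at 0.627 to 0.713 in Steatosis.

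The genes that interleukin receptors work with were described from lists of partners, signalling proteins and targets, 60 symbols of which 58 rows were found (CRP has 2 rows) and 53 tested. Of these 53, 2 rose (CSF2RA and IRAK2) and 1 fell (CISH), beside 6.01% higher and 0.334% lower of all tested genes. The median log2 fold change of the 53 was 0.34 beside 0.25 for all tested genes, and 0.06 beside -0.020 after scaling by the median ratio. Among partner chains and ligands, CSF2RA, the specific receptor of GM-CSF on myeloid cells, went from 3.37 ± 0.90 to 8.71 ± 1.51 FPKM (SD, n = 4 in each group, adjusted p = 0.0013 by limma), and 1 of 11 tested members of this list rose. EBI3, the partner of IL27, averaged 2.08 ± 0.40 and 3.25 ± 0.61 FPKM (adjusted p = 0.031 by limma). CXCL8, also called interleukin 8, was at 0.10 to 0.61 FPKM in Control and 0.11 to 0.93 FPKM in Steatosis.

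Among 11 kinases and STATs 0 passed both limits in either direction. JAK3, the kinase bound to IL2RG, was at 1.93, 2.66, 2.60 and 1.55 FPKM in Control and 3.97, 4.14, 3.95 and 4.44 FPKM in Steatosis, without overlap (log2 fold change 0.92, SE 0.17, adjusted p = 0.0042 by limma). STAT5A, which acts below the same receptors, was higher at an adjusted p of 0.0093 by limma with a log2 fold change of 0.56. JAK1, the partner kinase of many chains, had an estimate of 0.10 and STAT3, the main factor of IL6 signals, of -0.16, with adjusted p values of 0.52 and 0.47 by limma.

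Of 8 adaptors of the IL1 and IL17 receptors 1 rose, beside 6.01% of all tested genes. This was IRAK2, a kinase recruited by MYD88, which went from 0.80 ± 0.19 to 2.31 ± 0.07 FPKM (SD, n = 4 in each group, adjusted p = 0.00039 by limma). MYD88 itself was at 5.13 ± 0.81 and 9.54 ± 0.96 FPKM (log2 fold change 0.89, adjusted p = 0.0013 by limma), and TRAF3IP2, the adaptor of IL17 receptors, at 8.14 ± 2.11 and 8.73 ± 3.31 FPKM with overlap. Of 5 tested genes that process IL1 and IL18 and shed receptors, 0 passed both limits, while CASP1, the enzyme that matures IL1B and IL18, and GSDMD, the pore through which they leave the cell, had log2 fold changes of 0.98 and 0.90 with adjusted p values of 0.0053 and 0.00052 by limma.

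Of 7 feedback inhibitors 1 fell and 0 rose, beside 0.334% lower and 6.01% higher of all tested genes. CISH, a STAT5 target that damps signals of the gamma chain and of growth hormone, fell from 8.06, 13.5, 20.1 and 10.3 FPKM in Control to 5.73, 3.82, 5.56 and 4.74 FPKM in Steatosis (log2 fold change -1.30, SE 0.26, adjusted p = 0.0050 by limma). SOCS1 and SOCS2 had estimates of -0.74 and -0.87 with adjusted p values of 0.014 and 0.061 by limma, the groups of SOCS1 not overlapping. SOCS3, an inhibitor induced by IL6, was at 2.94 to 14.0 FPKM in Control and 3.04 to 5.81 FPKM in Steatosis. PTPN6, a phosphatase of blood cells, was higher at an adjusted p of 0.0020 by limma with a log2 fold change of 0.89. The median estimate of the 7 was -0.50, and -0.78 after scaling by the median ratio.

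Of the 11 rows of acute phase targets 0 passed both limits. The fibrinogen chains FGA and FGG were lower at adjusted p values of 0.0043 and 0.00355 by limma with log2 fold changes of -0.50 and -0.51, and FGB and HP had estimates of -0.44 and -0.52 with adjusted p values of 0.013 and 0.025. SAA3 was at 20.3 to 91.3 FPKM in Control and 33.6 to 110.4 FPKM in Steatosis, and HAMP, which encodes hepcidin, at 549.8 to 1790 and 703.9 to 1765 FPKM, both with overlap. FGA, FGB, FGG and HP were the rows of the list whose groups did not overlap, all lower in Steatosis. Of all tested genes 2.53% were lower without overlap, and 13.6% after scaling by the median ratio. The summed level of the list, in which the most abundant genes weigh most, was 22157 to 24862 FPKM in Control and 16955 to 18571 FPKM in Steatosis. The median log2 fold change of the 11 rows was 0.15 with 5 of them below 0, and -0.13 with 8 below 0 after scaling by the median ratio.

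**Figure D4:**
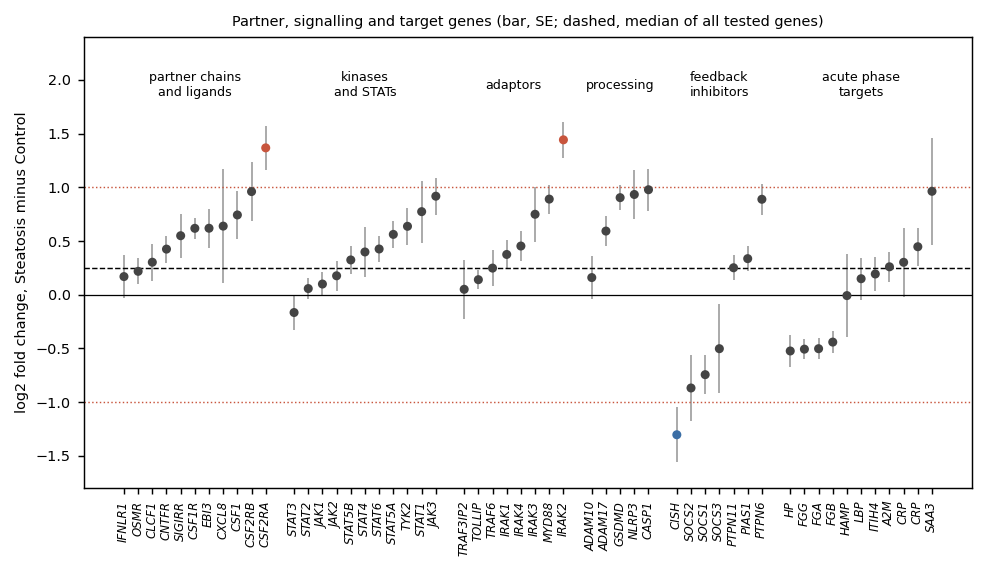
Log2 fold change (Steatosis minus Control, of FPKM + 0.1) with SE of 53 tested partner, signalling and target genes, by list, with the median of all tested genes (0.25) dashed and the limits of 1 and -1 dotted. IRAK2 and CSF2RA lie above 1 and CISH below -1, and HP, FGG, FGA and FGB lie near -0.5.

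Since the values are from whole liver, more cells of a type and more RNA per cell cannot be told apart. Marker lists were therefore set beside the members. Their sums are of FPKM as deposited, on which the general shift bears, and were not scaled. After scaling by the median ratio, the median log2 fold change was 0.35 for tested macrophage markers and 0.15 for endothelial markers. It was -0.04 for T and NK cell markers and -1.29 for B cell markers, beside -0.020 for all tested genes. The summed level of 12 macrophage markers was 892.8 to 1238 FPKM in Control and 1331 to 1530 FPKM in Steatosis. Of the 12, 3 rose, beside 6.01% of all tested genes (CD68, MARCO and SPI1, with log2 fold changes of 2.01, 3.33 and 1.5). The CD68 row is that of gene ID 103158530. The paper selected a CD68 transcript under another gene ID, reported a larger rise for it, and that row was not among these markers. C1QA, CD163 and TIMD4 overlapped between the groups and CD5L was lower without overlap (adjusted p = 0.071 by limma). The 12 T and NK cell markers summed to 52.0 to 84.2 FPKM in Control and 103.5 to 110.4 FPKM in Steatosis. Of these, 2 rose, beside 6.01% of all tested genes. They were NKG7 (1.36, with means of 13.5 and 34.6 FPKM) and CD4 (1.12, with means of 8.2 and 18.2 FPKM, also made by macrophages). The defining T cell genes CD3D, CD3E and CD3G had log2 fold changes of 0.33, 0.28 and -0.03 with overlapping groups. The other markers of the list overlapped as well. Their estimates were 0.20 (CD2), 0.43 (CD247), 0.09 (CD8A and CD8B), 0.07 (GZMB), 0.73 (KLRB1) and -0.63 (KLRD1).

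The 6 B cell markers summed to 17.7 to 46.9 FPKM in Control and 11.7 to 16.1 FPKM in Steatosis. Of 4 tested, 1 fell, MS4A1 (-1.23), beside 0.334% of all tested genes. The neutrophil list had 1 of 5 tested members higher, CSF3R (1.49), beside 6.01% of all tested genes. The other tested markers overlapped between the groups, with estimates of 0.18 (CXCR2), 0.06 (S100A12), -0.17 (S100A8) and -0.66 (S100A9). The median of the list was 0.06, and -0.21 after scaling by the median ratio. MPO and ELANE were under the limit of testing and at 0 in some libraries. MPO was at 0 to 0.02 FPKM in Control and 0.11 to 0.26 FPKM in Steatosis, without overlap, beside 5.19% of all rows under the limit. The sums of the list, 5.77 to 12.3 and 9.20 to 14.7 FPKM, overlapped. In the stellate cell list 1 of 6 rose, LRAT (1.25), beside the same 6.01%, and the sums were 29.0 to 169 and 54.9 to 130.9 FPKM. LRAT, RELN (0.83) and PDGFRB (0.73) were higher without overlap, beside 29.6% of all tested genes. COL1A1 (0.81), ACTA2 (-0.14) and DES (-0.67) overlapped. Endothelial markers summed to 40.5 to 49.6 and 56.0 to 75.2 FPKM with 0 of 5 past both limits, cholangiocyte markers to 3.69 to 19.3 and 6.76 to 17.1 FPKM with 0 of 3, and mast cell and basophil markers to 2.64 to 3.97 and 3.44 to 5.54 FPKM with 0 of 3. Control pool 1 held the highest Control sum of the stellate cell and cholangiocyte lists. The other Control pools reached at most 82.8 and 6.41 FPKM. The part that any of these cell types has in the values of IL2RG, IL27RA, IL10RA or IL17RC was not tested.

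The labelled tissue matched its markers, since the hepatocyte list (ALB, APOA1, TTR, TF and SERPINC1) summed to 55451 to 88267 FPKM in Control and 50160 to 61618 FPKM in Steatosis. Control pool 1 stood apart by genes of skeletal muscle (2740 FPKM in sum, against 1.04 to 21.1 in the other Control pools and at most 1.29 in Steatosis) and of stomach mucosa (1516 FPKM, against 5.52 to 28.4 and at most 6.28). Without that pool 3 members rose, beside 778 of 13175 tested genes. Of the members, 5 were higher with no limit on the fold change and 12 did not overlap between the groups. For these last counts the share of all tested genes without that pool is not given here.

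**Figure D5:**
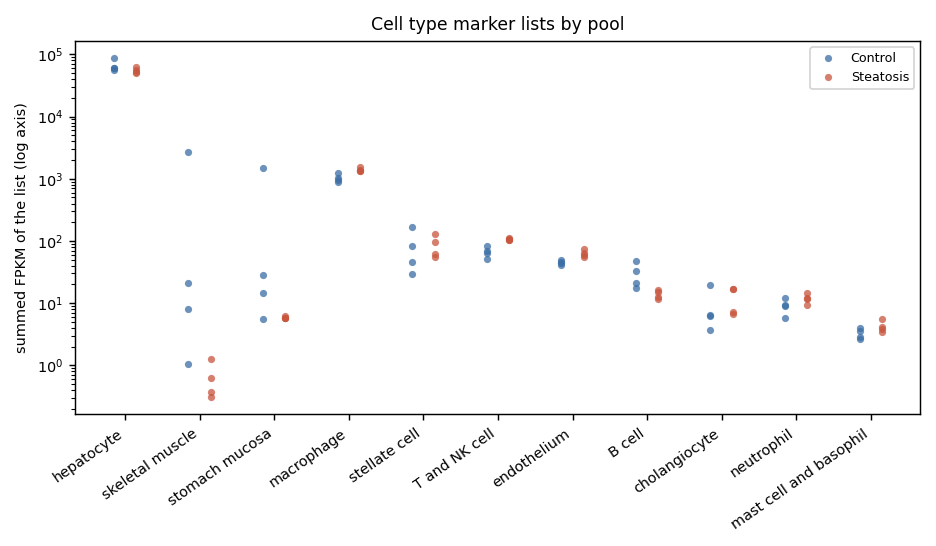
Summed FPKM (log axis) of each cell type marker list in the 4 Control and 4 Steatosis pools. With FPKM as deposited, not scaled by the median ratio, the macrophage, endothelium and T and NK cell sums of Steatosis lie above those of Control. The B cell sums lie below. Control pool 1 is alone with 2740 FPKM of skeletal muscle and 1516 FPKM of stomach mucosa genes.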

How the data were processed

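Hepatic RNA of 4 Control and 4 Steatosis pools of 2 pigs each was compared. The authors filtered reads, mapped them with HISAT2 2.0.4 to Sus scrofa 11.1, assembled transcripts with StringTie and estimated expression with Bowtie2 2.2.5 and RSEM 1.2.12, per the paper and the submitters' processing notes. The FPKM values deposited by the authors were used unscaled. Columns of the authors' own pairwise comparisons (fold changes, p and FDR) were not used.

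The 13175 genes that reached 0.3 FPKM in 4 or more libraries were tested in R 4.3.3 with limma 3.58.1 (trend by mean level, no term but the group, Benjamini-Hochberg adjustment). The scale was log2(FPKM + 0.1), which understates fold changes of low genes. A fold change or ratio was computed from these FPKM values only. Members under the limit, and ratios, were compared by two-sided exact permutation tests. Tables and plots used matplotlib 3.10.9, scipy 1.17.1, pandas 2.3.3 and numpy 2.4.6 under Python 3.11.15. In simulated data with 200 changed genes for this comparison, 185 (92.5%) were found with the right sign and 3 of the unchanged among 13175 genes were called. Every planted change was larger than the largest log2 fold change of a member (1.20, IL2RG), and no general shift was planted. The share found therefore does not apply to changes of the size seen in the members.

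The members, lists and tests were chosen with earlier results of these data known. Named with values are members past the limits, members of at least 0.3 FPKM whose groups do not overlap, the 3 most abundant of each role and a list of well-known interleukins and receptors. Others in ranges or examples were named after their values were seen. Libraries of equal pool number were treated as pairs in an alternative fit, since their deviations from the group means correlated at 0.16, 0.35, 0.32 and 0.25. Nothing says how animals were assigned to pools, and p-values measure the spread between pools. A planned motif search in promoters was not run, and no sequences were used here. Lengths of transcripts were read from the deposited comparison tables by the authors.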

Additional observations from a re-analysis of the deposited data

Results flagged for a closer look

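In 7 of 96 groups of 4 pools, 1 pool stood far from the other 3 by Dixon's criterion (the share of the range taken by the gap to the nearest pool), where chance gives about 1 in 20. IL10 in Steatosis was highest in pool 4, at 1.66 FPKM, and IL6 in Steatosis was also highest in pool 4, at 0.35 FPKM. IL13RA1 in Control reached 37.7 FPKM in pool 3, the other pools being at 28.0 to 28.9 FPKM. IL17RC in Steatosis was 3.83 FPKM in pool 2, only slightly above the others at 3.59 to 3.62 FPKM. IL1R2 in Control was 0.21 FPKM in pool 1, the library that also held genes of skeletal muscle and stomach. IL12B in Control was 0.05 FPKM in pool 4 and 0.03 FPKM in the other 3, a difference of about 1 fragment. The log2 ratio of IL1R2 to IL1R1 in Steatosis was highest in pool 2, at -7.42.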

How the results depend on the processing

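The number of members that rose was 3, and 3 with a common sum, no filter, a limit of 1 FPKM, a pseudocount of 0.01, an adjusted p of 0.05 or the pool number as a replicate block. It was 0 after scaling to a common upper quartile or by the median ratio, 0 with the block and the median ratio together (chosen after the data were seen), 0 in limma's treat test, 1 with a pseudocount of 1, 6 without the limit on the fold change, and 2 to 4 with 1 library left out. Of 13175 tested genes, 792 rose in the main setting and 785 with the block. Scaled to the upper quartile 436 rose, by the median ratio 401, and 400 with the block as well. The common sum gave 810 and a pseudocount of 0.01 gave 813. A pseudocount of 1 gave 395, the treat test 68, and leaving out 1 library 625 to 778. Without the fold limit 12.9% were higher. The 3 calls lie just past the limit of 1, and their log2 fold changes were 0.89 to 0.92 after the median ratio. Members that fell numbered 0 except for 1 (IL4R) without the fold limit after the median ratio, under which the count of members lower without overlap was also 1. With 1 library left out, that count was 0 to 1 (1, again IL4R, without Control pool 4) and the count higher without overlap 12 to 17, while 5 to 6 were higher without the fold limit, settings added later. The shares of all tested genes for these counts are not given here.

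Among the named members, estimates that changed sign lay between -0.06 and 0.24 with FPKM as deposited. After the upper quartile and the median ratio they were -0.051 and -0.091 for IL1RAP, -0.056 and -0.094 for IL4I1, -0.20 and -0.24 for IL6R and -0.0056 and -0.046 for IL6ST. With 1 library left out the ranges were -0.15 to 0.028 for IL13RA2, -0.082 to 0.30 for IL1RAP and -0.0067 to 0.15 for IL6R. The block changed no call past both limits. Over all settings, 443 estimates kept sign and call, 12 (of IL2RG, IL17RC and IL27RA) lost the call and 2 (of IL7R and IL27) gained it. FPKM gives no read counts, so the counting error of members under 0.3 FPKM is unknown here. Pairing by pool number left the difference of each log2 ratio as it was.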
